A study of Mus musculus with 23 samples.

Results

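H3K27me3 was compared between Ebf2-EGFP- and Ebf2-EGFP+ cells of the mouse cerebral cortex at E11.5, an embryonic stage counted in days, through the peak list deposited for each population. The Ebf2-EGFP- list held 48963 regions and the Ebf2-EGFP+ list 6387, together 55350 of the 230624 regions in the 8 lists of the series. A region was called shared if it overlapped a region of the other list by at least 1 bp. This gave 47880 regions of Ebf2-EGFP- cells only, 5296 regions of Ebf2-EGFP+ cells only, and a shared class of 1091 regions in the Ebf2-EGFP+ list that met 1082 regions in the Ebf2-EGFP- list. The remaining region of the Ebf2-EGFP- list was mitochondrial and was set aside.

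Both populations were dissociated from Tg(Ebf2-EGFP)FB58Gsat embryos, which carry a transgene that places EGFP under the control of Ebf2, and were separated by fluorescence. At E11.5 the EGFP+ cells are preplate neurons, the earliest postmitotic neurons of the cortex, from which Cajal-Retzius and subplate neurons derive. The EGFP- cells are mostly neural stem and progenitor cells, defined only by the absence of EGFP, so any other cell of the dissected tissue falls in this gate. Each list stands for 2 ChIP libraries made with the same H3K27me3 antibody, and 4 input libraries of the 2 populations accompany them. No list per library and no read count was used here, so the depth behind each list is unknown, differences between the lists have no replicate error, and no test between populations was made. Intervals given below are 95% Wilson intervals over regions or genes, and cover counting error only.

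H3K27me3 is deposited by Polycomb repressive complex 2 and is read by Polycomb repressive complex 1. In embryonic stem cells and neural progenitors it is known to cover CpG-rich promoters of silent developmental regulators, such as the Hox clusters and transcription factors of other lineages, and it is removed or kept as cells commit. Acetylation of the same lysine, H3K27ac, marks active promoters and enhancers, and a single histone tail cannot carry both.

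The sequences of 6 regions are given as examples of the classes. They are the region within 1 kb of the transcription start site (TSS) of a listed gene, and the region over 5 kb from every protein-coding TSS, that were widest up to 300 bp in each class, or that had the longest overlap in the shared class. All are on the plus strand of GRCm38, the reference sequence of the mm10 build, with CpG dinucleotides in capitals.
Shared, 512 bp from the Zfp710 TSS, chr7:80025178-80025474: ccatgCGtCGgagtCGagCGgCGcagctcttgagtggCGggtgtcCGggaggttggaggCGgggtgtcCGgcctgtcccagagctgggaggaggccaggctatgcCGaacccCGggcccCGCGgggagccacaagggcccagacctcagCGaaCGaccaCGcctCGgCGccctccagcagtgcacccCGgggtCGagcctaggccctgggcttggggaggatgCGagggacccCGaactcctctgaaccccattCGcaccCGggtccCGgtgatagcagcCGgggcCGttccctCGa
Shared, intergenic, chr4:125882466-125882748: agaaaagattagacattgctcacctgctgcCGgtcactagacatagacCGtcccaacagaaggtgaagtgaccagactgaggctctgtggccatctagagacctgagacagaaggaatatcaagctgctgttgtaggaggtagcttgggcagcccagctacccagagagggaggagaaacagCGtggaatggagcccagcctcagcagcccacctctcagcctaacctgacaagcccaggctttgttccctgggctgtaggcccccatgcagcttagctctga
Ebf2-EGFP- only, 807 bp from the Rbfox1 TSS, chr16:5886013-5886311: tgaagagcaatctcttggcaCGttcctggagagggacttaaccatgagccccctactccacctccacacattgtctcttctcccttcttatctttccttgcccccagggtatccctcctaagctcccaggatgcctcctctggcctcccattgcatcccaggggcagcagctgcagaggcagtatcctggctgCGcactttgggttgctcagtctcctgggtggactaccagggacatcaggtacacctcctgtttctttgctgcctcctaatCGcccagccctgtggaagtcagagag
Ebf2-EGFP- only, intron of Col13a1, chr10:61961573-61961872: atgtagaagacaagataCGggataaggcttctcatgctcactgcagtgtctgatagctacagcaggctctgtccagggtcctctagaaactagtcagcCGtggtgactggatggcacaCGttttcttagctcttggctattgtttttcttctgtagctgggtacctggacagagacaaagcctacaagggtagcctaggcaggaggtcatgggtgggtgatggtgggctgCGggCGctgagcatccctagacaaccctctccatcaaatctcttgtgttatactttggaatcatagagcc
Ebf2-EGFP+ only, 487 bp from the Hba-a2 TSS, chr11:32296878-32297074: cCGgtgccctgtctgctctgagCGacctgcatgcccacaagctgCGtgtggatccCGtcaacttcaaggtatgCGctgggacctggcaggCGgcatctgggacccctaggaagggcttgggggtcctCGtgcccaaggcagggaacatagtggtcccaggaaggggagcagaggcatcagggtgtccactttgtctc
Ebf2-EGFP+ only, intron 146035 bp from the Rad23b TSS, chr4:55203859-55204157: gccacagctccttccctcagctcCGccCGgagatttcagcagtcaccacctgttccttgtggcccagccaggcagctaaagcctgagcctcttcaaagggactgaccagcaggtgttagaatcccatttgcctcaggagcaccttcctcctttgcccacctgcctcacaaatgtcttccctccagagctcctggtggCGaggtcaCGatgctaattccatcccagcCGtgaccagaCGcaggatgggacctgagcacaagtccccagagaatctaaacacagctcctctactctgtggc

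The shared region beside Zfp710, a zinc finger protein gene, held 28 CpG dinucleotides in 297 bp, at 71.7% GC. The distal shared region held 3 in 283 bp. Rbfox1 encodes a neuronal splicing regulator, and the region beside it held 3 CpG dinucleotides in 299 bp. Hba-a2 encodes an alpha-globin chain and has a near-identical copy in the genome, so the assignment of reads to it is uncertain. The region beside Hba-a2 held 7 CpG dinucleotides in 197 bp, more than that beside Rbfox1. As whole classes the order was the other way, with 4.23 per 100 bp in Ebf2-EGFP- only and 2.13 in Ebf2-EGFP+ only regions. These 6 regions are therefore examples that need not be typical, and the composition of the whole classes is given further on.

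Regions of both lists were short. The median width was 184 bp in the Ebf2-EGFP- only class, with quartiles of 144 and 254 bp, and 151 bp in the Ebf2-EGFP+ only class, with quartiles of 126 and 190 bp. Each list had a floor, at 130 bp in the Ebf2-EGFP- list and 116 bp in the Ebf2-EGFP+ list. In the Ebf2-EGFP+ only class 14.2% of regions sat exactly at that floor, and in the Ebf2-EGFP- only class 6238 of 47880 did. Shared regions were wider than unshared ones in both lists, with medians of 241 bp in the Ebf2-EGFP- list and 165 bp in the Ebf2-EGFP+ list. Regions of at least 300 bp made up 35.2% of shared regions in the Ebf2-EGFP- list but 16.9% of the Ebf2-EGFP- only class, and 7.61% of shared regions in the Ebf2-EGFP+ list but 2.72% of the Ebf2-EGFP+ only class. No region of either list was wider than 2565 bp, so broad domains, if the cells had them, appear in these lists as separate short regions.

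A minority of the regions of each list was shared. Of the Ebf2-EGFP+ regions, 17.1% met an Ebf2-EGFP- region (95% interval 16.18 to 18.02), and of the Ebf2-EGFP- regions, 2.21% met an Ebf2-EGFP+ region (2.08 to 2.34). The lists differed 7.67-fold in size, which bounds the second share. With unknown depth a difference in sequencing or enrichment cannot be told apart from one in the cells. Of positions set every 1 kb along the genome, 3.39% lay within 1 kb of the centre of an Ebf2-EGFP- region. For the centre of an Ebf2-EGFP+ region it was 0.474%. These are distances to a centre and not overlaps by 1 bp, so they are no background for the shared parts above. Measured in bases, the overlap came to 145 kb, 13.4% of the bases in the Ebf2-EGFP+ list and 1.32% of those in the Ebf2-EGFP- list. The 1097 overlapping pairs shared a median of 126 bp, and their centres lay a median of 71 bp apart. In 412 of the pairs the Ebf2-EGFP+ region lay wholly inside the Ebf2-EGFP- region, and the Ebf2-EGFP- region was the wider in 74.6% of pairs.

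Regions that did not overlap still lay near those of the other population. The median distance from an Ebf2-EGFP+ only region to the nearest Ebf2-EGFP- region was 8.59 kb, against 31.3 kb from positions set every 1 kb along the genome. Within 5 kb of an Ebf2-EGFP- region lay 36.7% of Ebf2-EGFP+ only regions (35.4 to 38.0), against 14.1% of genome positions. In the other direction 7.45% of Ebf2-EGFP- only regions lay within 5 kb of an Ebf2-EGFP+ region, against 2.27% of positions. Both lists favoured GC-rich, gene-rich DNA, and the part of this shared preference in the nearness was not tested.

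The classes differed at promoters. A region was placed at a promoter if its centre lay within 1 kb of the start of a protein-coding gene, and otherwise in an exon, in an intron or between genes. Promoters held 17.5% of Ebf2-EGFP- only regions (17.1 to 17.8), 12.5% of shared regions in the Ebf2-EGFP+ list (10.6 to 14.6) and 4.78% of Ebf2-EGFP+ only regions (4.23 to 5.39). They make up 1.56% of the genome, so the enrichment was 11.2-fold, 7.99-fold and 3.06-fold. Introns held a larger share of the Ebf2-EGFP+ only class than of the others, with 35.0% of Ebf2-EGFP- only regions, 31.3% of shared and 45.0% of Ebf2-EGFP+ only regions, against 40.6% of the genome. Between genes the classes were close to each other, with 14365 of 47880 Ebf2-EGFP- only regions (29.6% to 30.4%), 28.0% of shared and 29.7% of Ebf2-EGFP+ only regions, all below the 53.4% of the genome.

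**Figure D1:**
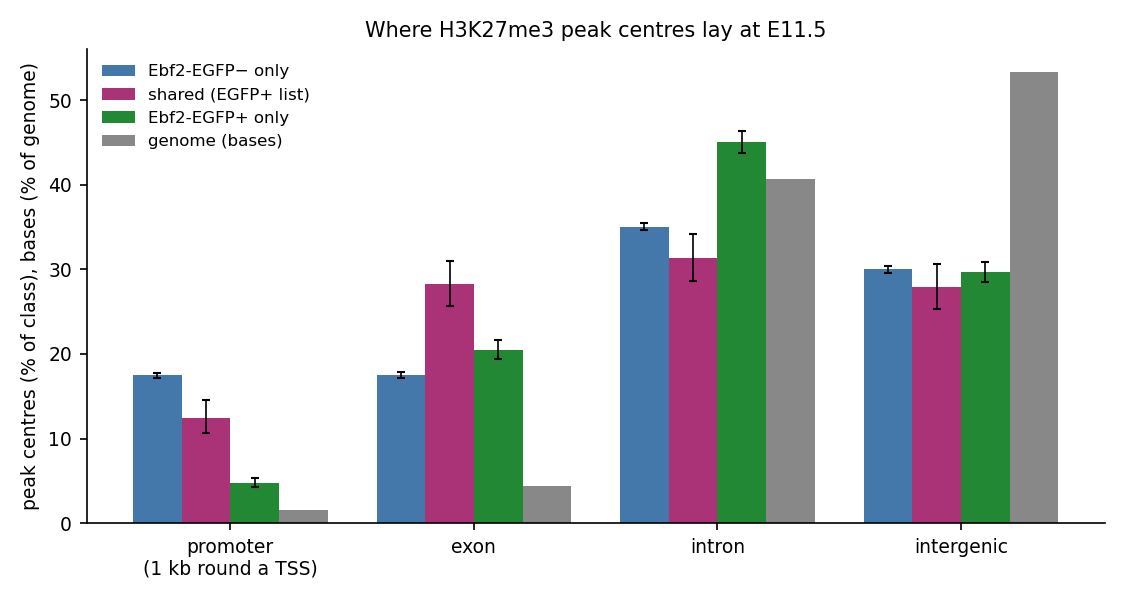
Share of peak centres of each class at promoters, in exons, in introns and between genes, in percent, with 95% Wilson intervals as bars that cover counting error only; grey bars give the share of genome bases. Ebf2-EGFP- only regions were at promoters in 17.5% of cases and Ebf2-EGFP+ only regions in 4.78%, against 1.56% of the genome.

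Exons held more of both lists than their share of the genome, and most of all the shared regions. They took 28.2% of shared regions in the Ebf2-EGFP+ list (25.6 to 31.0), 20.5% of Ebf2-EGFP+ only and 17.5% of Ebf2-EGFP- only regions, against 4.44% of the genome. Most of these exon centres lay in coding sequence. Coding exons alone held 20.99% of shared, 13.3% of Ebf2-EGFP+ only and 10.9% of Ebf2-EGFP- only regions. Untranslated exon held between 2.29% and 3.19% of each of these classes.

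The distance to the nearest protein-coding TSS differed between the classes within 1 kb, and between the unshared classes from 5 to 100 kb. From 1 to 5 kb, and beyond 100 kb, the intervals of the classes overlapped. The median distance was 20.9 kb for Ebf2-EGFP- only, 21.6 kb for shared and 27.03 kb for Ebf2-EGFP+ only regions, against 76.2 kb for genome positions. Beyond 100 kb lay 20.1%, 18.4% and 19.3% of them, against 44.2% of positions. Between 5 and 20 kb from a TSS the unshared classes stood in the reverse order to that at promoters. There lay 28.1% of Ebf2-EGFP+ only regions (26.9 to 29.3), 25.2% of shared (22.7 to 27.9) and 21.6% of Ebf2-EGFP- only regions (21.3 to 22.0), against 16.1% of positions. The shared interval overlapped that of Ebf2-EGFP+ only regions. Between 20 and 100 kb the unshared classes stood likewise, with 38.5% of Ebf2-EGFP+ only (37.2 to 39.8), 33.6% of shared (30.9 to 36.5) and 30.7% of Ebf2-EGFP- only regions (30.3 to 31.1), against 32.3% of positions. At that distance the shared interval overlapped that of Ebf2-EGFP- only regions.

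**Figure D2:**
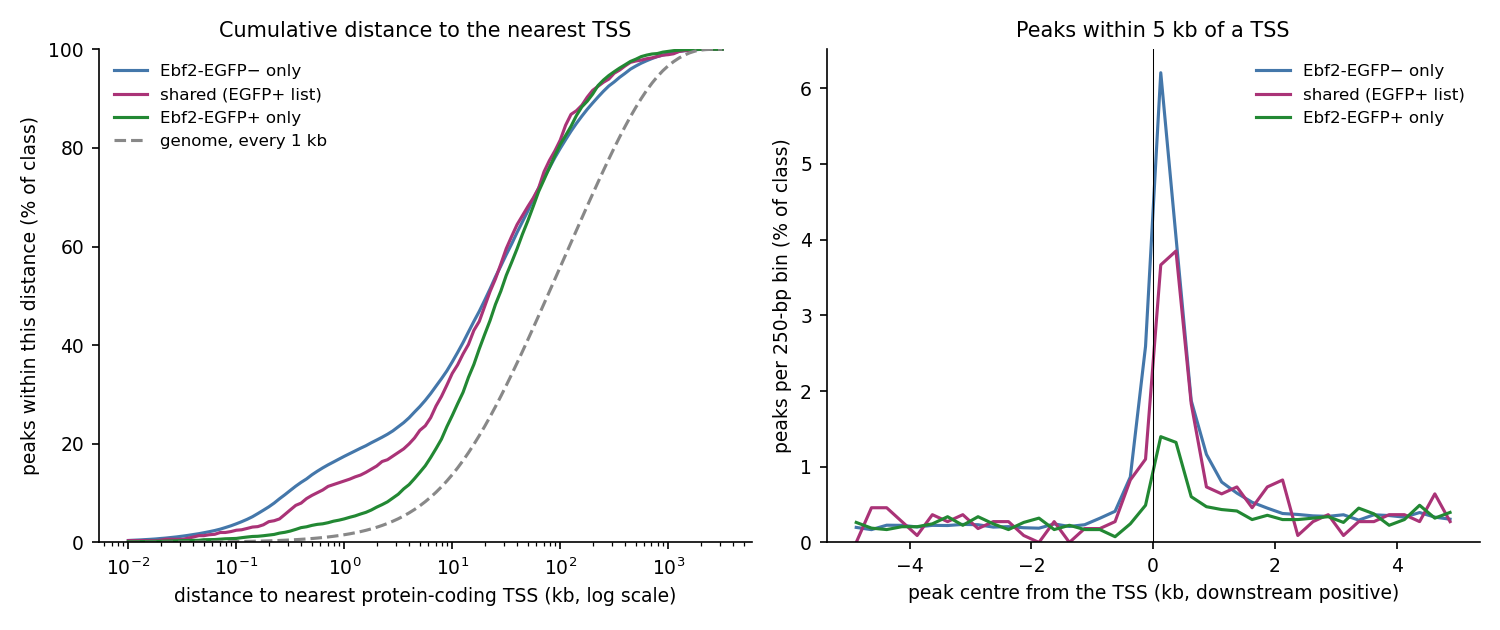
Left, share of each class within a given distance of the nearest protein-coding TSS (kb, log scale), with genome positions every 1 kb as a dashed line; right, share of each class in 250-bp bins of distance from the TSS in the direction of transcription (kb). The 3 classes run together beyond 100 kb, where 18.4% to 20.1% of them lay, and part close to the TSS, where the Ebf2-EGFP- only curve is highest.

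Near a TSS, regions of every class lay mainly downstream of it. Of those centred within 5 kb, 72.3% of Ebf2-EGFP- only regions (71.5 to 73.0), 73.8% of shared regions in the Ebf2-EGFP+ list (68.0 to 78.9) and 66.5% of Ebf2-EGFP+ only regions (63.0 to 69.8) lay on the transcribed side. They differed in how tightly they sat on the TSS. Within 500 bp of it lay 49.8% of the Ebf2-EGFP- only regions that were inside the 5-kb window, 41.9% of the shared ones and 24.4% of the Ebf2-EGFP+ only ones.

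All 3 classes were rich in GC and in CpG, the Ebf2-EGFP+ only class less so than the others. The mean GC content was 60.2% ± 7.29 (SD over 47880 regions) in the Ebf2-EGFP- only class, 61.5% ± 6.55 (SD over 1091 regions) in the shared class and 55.9% ± 5.42 (SD over 5296 regions) in the Ebf2-EGFP+ only class, against 41.7% in 200-bp windows set every 10 kb. GC exceeded that of the DNA out to 1 kb on either side in 95.3%, 94.8% and 92.6% of regions of these classes. CpG dinucleotides occurred 4.23, 4.17 and 2.13 times per 100 bp, against 0.825 in the genome windows. A 500-bp window was called CpG-rich if its GC content was at least 50% and it held at least 0.6 of the CpG expected from its base composition. Such a window surrounded 24.5% of Ebf2-EGFP- only regions, 22.5% of shared regions (20.2 to 25.1) and 4.34% of Ebf2-EGFP+ only regions (3.83 to 4.93), against 0.725% of the genome windows.

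The difference in GC was not only one of promoters. Among intergenic regions the mean GC was 58.1% for Ebf2-EGFP- only, 59.7% for shared and 54.5% for Ebf2-EGFP+ only regions, against 40.6% in intergenic windows of the genome. At promoters it was 68.7%, 69.6% and 63.0%, against 50.7%. Short motifs followed the composition. The GC box GGGCGG, the letters bound by Sp factors, was found on either strand in the central 200 bp of 20.1% of Ebf2-EGFP- only, 15.6% of shared and 6.91% of Ebf2-EGFP+ only regions, against 1.95% of genome windows of that length. The E-box CAGCTG, a word bound by proneural factors, showed no such order, at 17.0%, 17.5% and 18.6%, against 7.27%. The E-box CATCTG was in 14.6%, 13.6% and 19.8%, against 15.1%. A match is only the presence of these letters.

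Read from the genes, the Ebf2-EGFP- list marked far more TSS. A TSS counted as marked if a region had a base within 5 kb of it. Of 21938 protein-coding TSS, the Ebf2-EGFP- list marked 48.2% and the Ebf2-EGFP+ list 4.92%, and these shares are the background for every gene list below. Both lists marked 764 TSS, the Ebf2-EGFP- list alone 9801, the Ebf2-EGFP+ list alone 316, and neither 11057. The TSS marked in Ebf2-EGFP+ cells were also marked in Ebf2-EGFP- cells in 70.7% of cases (68.0 to 73.4), against 47.0% of the TSS that Ebf2-EGFP+ cells did not mark (46.3 to 47.7). The overlap was mostly one of genes rather than of sites. An Ebf2-EGFP+ region that itself overlapped an Ebf2-EGFP- region lay within the window at only 272 of the 764 TSS, or 35.6%, and at the others the populations had separate regions beside the same start.

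The CpG content of the start divided the Ebf2-EGFP- marks far more than the Ebf2-EGFP+ marks. Of 10441 TSS in a CpG-rich window, 67.5% were marked in Ebf2-EGFP- cells (66.6 to 68.4), and of 11497 other TSS, 30.6% (29.8 to 31.4). In Ebf2-EGFP+ cells the shares were 5.20% (4.79 to 5.64) and 4.67% (4.30 to 5.07). Of the TSS marked in Ebf2-EGFP- cells alone 67.4% were CpG-rich, of those marked in both 58.4%, and of those marked in Ebf2-EGFP+ cells alone 30.7%, close to the 29.8% of unmarked TSS.

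In Ebf2-EGFP- cells other kinds of gene were marked less often than protein-coding genes, and in Ebf2-EGFP+ cells some were and some were not. Starts of lincRNAs, long RNAs between protein-coding genes, were marked in 14.8% of cases in Ebf2-EGFP- cells (13.9 to 15.8) and in 2.87% in Ebf2-EGFP+ cells (2.45 to 3.36), counting the 5226 that lie over 5 kb from every protein-coding TSS. For 1891 antisense RNAs so placed the shares were 30.1% and 5.08%, for 1777 miRNA genes 23.6% and 5.06%, and of 9241 processed pseudogenes 1248 were marked in Ebf2-EGFP- cells and 2.41% in Ebf2-EGFP+ cells. Of 702 immunoglobulin and T cell receptor segments, 4.84% were marked in Ebf2-EGFP- cells and none in Ebf2-EGFP+ cells, which allows a share of up to 0.544% there.

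The classical Polycomb targets were marked more often than the background in Ebf2-EGFP- cells, and not at all in Ebf2-EGFP+ cells. Of 39 Hox genes, the regulators of position along the body axis, 28 were marked in Ebf2-EGFP- cells, 71.8% (56.2 to 83.5), and none in Ebf2-EGFP+ cells (upper limit 8.97%). Of 71 transcription factors of non-neural lineages 53 were marked in Ebf2-EGFP- cells, 74.6% (63.4 to 83.3), and none in Ebf2-EGFP+ cells (upper limit 5.13%). Hoxa5 had 8 Ebf2-EGFP- regions within 5 kb that covered 2519 bp, and Hoxa6 had 7 that covered 2232 bp. Foxf1, a regulator of lung and gut mesoderm, had 4 regions over 1356 bp, Foxl2, a regulator of the ovary, 5 over 1190 bp, and Twist1, a regulator of mesenchyme, 2 over 1039 bp. With the Ebf2-EGFP+ background at 4.92%, lists of this size would hold few marked genes, so a count of 0 is a weak statement about Ebf2-EGFP+ cells.

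Transcription factors that pattern other parts of the brain and the spinal cord had the highest share of the 25 lists within 5 kb of the TSS in both populations, in Ebf2-EGFP- cells next to histone genes at 85.1%, and in Ebf2-EGFP- cells not with a 1-kb window. Of 81 such genes 69 were marked in Ebf2-EGFP- cells, 85.2% (75.9 to 91.3), and 9 in Ebf2-EGFP+ cells, 11.1% (5.96 to 19.8). Among the CpG-rich starts of this list 50 of 53 were marked in Ebf2-EGFP- cells, against 67.5% of all CpG-rich starts. The 9 genes in Ebf2-EGFP+ cells were Nkx2-9, Nkx6-1, Evx1, Dlx2, Lhx6, Foxb1 and Barhl2, also marked in Ebf2-EGFP- cells, and Pax3 and Lhx3, marked in Ebf2-EGFP+ cells alone. With a 1-kb window the list fell to 53.1% in Ebf2-EGFP- cells, below histone genes at 67.2% and Polycomb subunits at 66.7%, and to 4 of 81 in Ebf2-EGFP+ cells, 4.94%, where 36.2% and 1.89% of all TSS were marked. With the Ebf2-EGFP- list thinned to the size of the other it stood at 17.3%, below Cajal-Retzius genes at 20.5%. Each of the 9 genes had a single Ebf2-EGFP+ region. The most Ebf2-EGFP- bases in the list were at En2, a factor of the midbrain and hindbrain, with 1213 bp in 4 regions, and at Skor1, a corepressor of dorsal spinal cord neurons, with 1122 bp in 4.

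Their regions rarely coincided. Barhl2, a factor of the diencephalon and dorsal spinal cord, was the only gene of the 9 with a shared region, where the Ebf2-EGFP- region chr5:106458627-106458840 and the Ebf2-EGFP+ region chr5:106458792-106458949 met upstream of the start. Nkx6-1, a factor of ventral progenitors, had 5 Ebf2-EGFP- regions that covered 1092 bp and 1 Ebf2-EGFP+ region of 116 bp in coding sequence, chr5:101663632-101663747, between them. Dlx2, which specifies cortical interneurons from the ventral forebrain, had Ebf2-EGFP- regions of 206 and 137 bp in untranslated exon and an Ebf2-EGFP+ region of 164 bp, chr2:71544499-71544662, in coding sequence next to them. Lhx6, which acts downstream in the same interneurons, had an Ebf2-EGFP- region 2697 bp into the gene and an Ebf2-EGFP+ region of 139 bp centred 32 bp upstream of the start. Pax3, a factor of the dorsal neural tube and neural crest, had only an Ebf2-EGFP+ region of 116 bp, chr1:78196373-78196488, centred 703 bp downstream of its start. Regions of 116 bp are the narrowest the list holds.

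Genes of the cortex's own programme were marked in Ebf2-EGFP- cells above the background of 48.2%, while their counts in Ebf2-EGFP+ cells, 0 or 1 in each list, were too few to be set apart from the background of 4.92%. Of 49 cortical progenitor genes 34 were marked in Ebf2-EGFP- cells, 69.4% (55.5 to 80.5), and 1 in Ebf2-EGFP+ cells. Of 35 proneural and intermediate progenitor genes 29 were, 82.9% (67.3 to 91.9) and 1 in Ebf2-EGFP+ cells. Many Ebf2-EGFP- bases in these lists were at Jag2, a Notch ligand, with 1541 bp in 3 regions, Scrt1, a repressor of newborn neurons, with 1334 bp in 7, and Ccnd1, a cyclin of the G1 phase, with 1239 bp in 5. Of 39 Cajal-Retzius genes 26 were marked in Ebf2-EGFP- cells, 66.7% (51.0 to 79.4), and none in Ebf2-EGFP+ cells (upper limit 8.97%). Of 37 subplate and early cortical neuron genes 24 were, 64.9% (48.8 to 78.2). Nxph4, a secreted neurexin ligand of subplate neurons, was marked in both populations by the overlapping regions chr10:127533889-127534136 and chr10:127533933-127534171 near its start. CpG-rich starts made up 65.3% of cortical progenitor, 48.6% of proneural, 59.0% of Cajal-Retzius and 56.8% of subplate genes, against 47.6% of all TSS. Among those starts 71.9%, 88.2%, 69.6% and 90.5% were marked in Ebf2-EGFP- cells, against 67.5% of all CpG-rich starts. Only the subplate interval (71.1 to 97.3) lay wholly above that share.

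The markers of each population were looked at gene by gene. Over all TSS the Ebf2-EGFP- list marked 48.2% and the Ebf2-EGFP+ list 4.92%, and counts out of 10 genes are too few to be set apart from these shares. Of 10 markers of Ebf2-EGFP+ cells 6 had an Ebf2-EGFP- region and none an Ebf2-EGFP+ region. Ebf2 itself had 1 Ebf2-EGFP- region of 183 bp in an intron 1204 bp downstream of its start, chr14:67234405-67234587, and its relative Ebf3 had 5 over 744 bp. Lhx5, a factor of Cajal-Retzius neurons and the cortical hem, had 2 over 797 bp, Trp73, the p53 family member of Cajal-Retzius neurons, 2 over 441 bp, Tbr1, a factor of early glutamatergic neurons, 2 over 500 bp, and Lhx1 1 over 313 bp. Reln, Calb2, Tubb3 and Dcx had no region in either list. Of 10 markers of Ebf2-EGFP- cells 7 had an Ebf2-EGFP- region, so the markers of the progenitors themselves were marked about as often as those of the neurons. Among these were Sox2 with 285 bp, Hes1 with 533 bp, Nes with 663 bp, Vim with 385 bp, Emx2 with 473 bp and Lhx2 with 600 bp. Pax6, Hes5 and Fabp7 had none. The regions carry no expression, so the identity of the sorted cells could not be checked here.

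Genes of neuronal function were marked at similar shares. Of 54 pan-neuronal structure genes 37 were marked in Ebf2-EGFP- cells, 68.5% (55.3 to 79.3), and 2 in Ebf2-EGFP+ cells, namely Kif5a, a kinesin of axonal transport, and Elavl2, an RNA-binding protein, the latter in Ebf2-EGFP+ cells alone. Of 74 synaptic genes 46 were, 62.2% (50.8 to 72.4), with Syn2, Shank1 and Shank3 in Ebf2-EGFP+ cells. Shank3, a scaffold of excitatory synapses, had 3 Ebf2-EGFP+ regions over 604 bp and 2 Ebf2-EGFP- regions over 593 bp, none overlapping. Of 70 axon guidance genes 51 were marked in Ebf2-EGFP- cells and 4 in Ebf2-EGFP+ cells, all 4 semaphorins (Sema3b, Sema3g, Sema6b and Sema6c). Sema6b also had the most Ebf2-EGFP- bases of these genes, 1835 bp in 6 regions, followed by Plxnd1, a semaphorin receptor, with 1725 bp in 4. Of 80 secreted patterning signals 51 were marked in Ebf2-EGFP- cells and Wnt2b, Fgf3, Fgf4 and Sfrp4 in Ebf2-EGFP+ cells. Wnt2b, a Wnt of the cortical hem, had overlapping regions at its start, chr3:104961695-104961830 and chr3:104961771-104961966. Fgf3 and Fgf4 are neighbours and shared 1 Ebf2-EGFP+ region, chr7:144842630-144842829.

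Housekeeping, ribosomal protein, cell cycle and histone genes were marked as well. Except for histone genes, the intervals of these lists in Ebf2-EGFP- cells held the background of 48.2%. Of 84 housekeeping genes 43 were marked in Ebf2-EGFP- cells, 51.2% (40.7 to 61.6), and 5 in Ebf2-EGFP+ cells, 5.95% (2.57 to 13.2), namely Ywhaz, Tfrc, Psmc3, Farsa and Snrpa. Of 83 cytosolic ribosomal protein genes 47 were, 56.6% (45.9 to 66.8), and Rpl8, Rpl22, Rpl27 and Rpl36 in Ebf2-EGFP+ cells. Of 79 cell cycle genes 42 were, 53.2% (42.3 to 63.8), and Pold1, E2f2 and Nusap1 in Ebf2-EGFP+ cells. Gapdh, a glycolytic enzyme, had 3 Ebf2-EGFP- regions over 685 bp. Ywhaz, a signalling adaptor, had 3 over 1120 bp, of which the one upstream of its start overlapped an Ebf2-EGFP+ region of 131 bp. Histone genes of the replication-dependent clusters were marked in 57 of 67 cases, 85.1% (74.7 to 91.7), a share close to that of the regional transcription factors, and Hist1h2aa and Hist1h2ba were marked in Ebf2-EGFP+ cells. Histone genes stand in clusters, so 1 region can mark several of them, and their near-identical copies make the assignment of reads uncertain. Within CpG-rich starts the housekeeping list lay below the background, and the lists above it were not only developmental. Of CpG-rich housekeeping starts 40 of 76 were marked in Ebf2-EGFP- cells, 52.6% (41.6 to 63.5), against 67.5% of all CpG-rich starts. The share was 89.2% for non-neural transcription factors (33 of 37, 75.3 to 95.7) and 86.5% for histone genes (45 of 52, 74.7 to 93.3). Hox genes stood at 78.6% (22 of 28, 60.5 to 89.8) and proneural genes at 88.2% (15 of 17, 65.7 to 96.7). Both intervals held the background. So did those of cortical progenitor genes, at 71.9% (54.6 to 84.4), and Cajal-Retzius genes, at 69.6% (49.1 to 84.4).

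Olfactory and vomeronasal receptor genes, whose starts are almost never CpG-rich, were hardly marked. Of 1092 olfactory receptor genes 48 were marked in Ebf2-EGFP- cells, 4.40% (3.33 to 5.78), and Olfr314, Olfr374, Olfr514 and Olfr976 in Ebf2-EGFP+ cells. Of 326 vomeronasal receptor genes 18 were, 5.52%, and Vmn1r198, Vmn1r204 and Vmn2r81 in Ebf2-EGFP+ cells. Markers of blood, vessels, microglia and mesenchyme, the other cells that the EGFP- gate could hold, were marked in 12 of 34 cases in Ebf2-EGFP- cells, 35.3% (21.5 to 52.1), and the alpha-globin gene Hba-a2 was the only one in Ebf2-EGFP+ cells. Clustered protocadherins, surface proteins of neuronal self-recognition, were marked in 30 of 56 cases in Ebf2-EGFP- cells, and Pcdha5, Pcdhb4, Pcdhb6, Pcdhb9 and Pcdhb14 in Ebf2-EGFP+ cells. Within 1 kb of the TSS only 7 of the 56 were marked in Ebf2-EGFP- cells, 12.5% against 36.2% of all TSS, and none in Ebf2-EGFP+ cells. Keratins, with 4 CpG-rich starts among 53 genes, were marked in 20 cases in Ebf2-EGFP- cells, 37.7% (25.9 to 51.2). Krt6a, Krt27, Krt36, Krt79 and Krt84 were marked in Ebf2-EGFP+ cells, 9.43% (4.10 to 20.3). Within 1 kb of the TSS 1 of the 53 keratins was marked there, 1.89%, against 1.89% of all TSS. Potassium channels were marked in 60 of 94 cases in Ebf2-EGFP- cells (63.8%) and in 6 in Ebf2-EGFP+ cells (6.38%). Solute carriers were marked in 209 of 385 (54.3%) and in 22 (5.71%), and Zfp genes in 170 of 394 (43.1%) and in 17 (4.31%). Over all TSS the shares were 48.2% and 4.92%. Of 44 collagen genes 19 were marked in Ebf2-EGFP- cells and only Col6a6 in Ebf2-EGFP+ cells. Of 36 Polycomb subunits and H3K27 enzymes 27 were marked in Ebf2-EGFP- cells (58.9% to 86.2%), and only Phc3, a subunit of Polycomb repressive complex 1, in Ebf2-EGFP+ cells. Cbx8, which encodes a reader of H3K27me3 in Polycomb repressive complex 1, had 7 Ebf2-EGFP- regions over 1655 bp. In the Ebf2-EGFP+ list the regional transcription factors were the only list of the 25 whose interval within 5 kb lay wholly above the background of 4.92%, and the intervals were not adjusted for the number of lists.

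**Figure D3:**
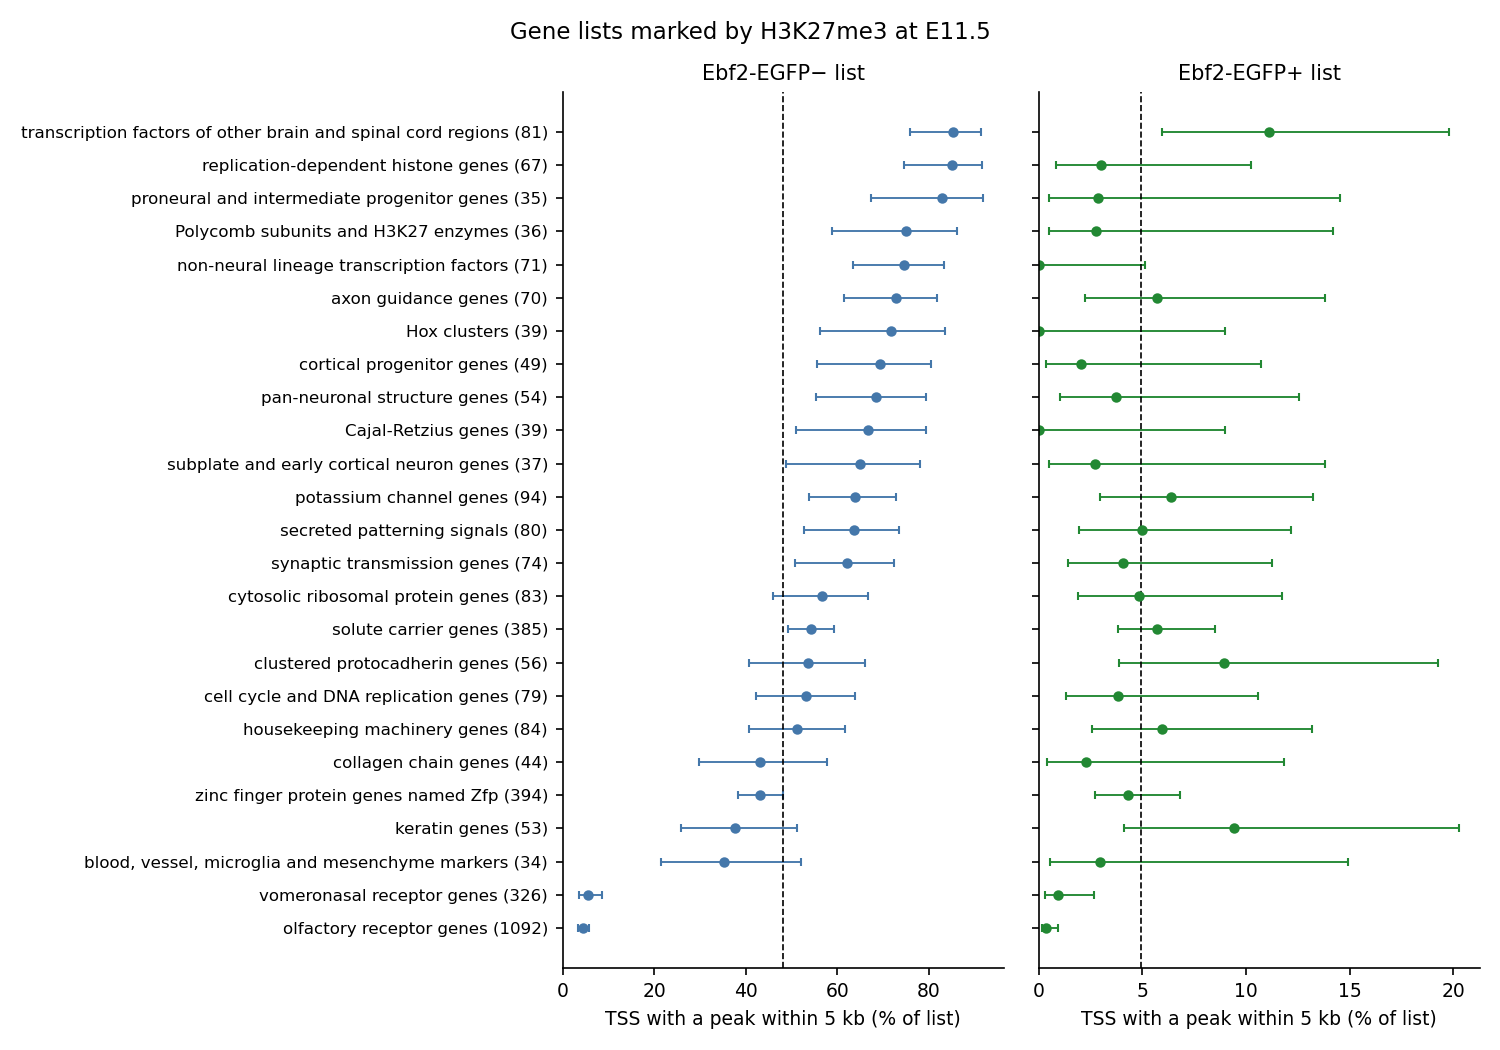
Share of each of the 25 gene lists with a region within 5 kb of the TSS in the Ebf2-EGFP- list (left) and the Ebf2-EGFP+ list (right), in percent, with 95% Wilson intervals; the number of genes follows each name, the dashed lines give the share over all protein-coding TSS, and the scales of the panels differ. Regional transcription factors lie highest in both panels, at 85.2% and 11.1%, and olfactory receptors lie at 4.40% and 0.366%.

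The genes with the most marked bases differed in kind between the classes. In the Ebf2-EGFP- only class 6 of the first 10 were predicted genes at the start of chromosome 9, led by Gm10717 with 15 regions over 3744 bp, in DNA that is almost all repeats. Hoxa5 and Hoxa6 were also among them. In the shared class AW822073 had 753 bp of Ebf2-EGFP+ region, Tmem125 712 bp and Thada 575 bp. Prtg, an immunoglobulin superfamily receptor of early neural tissue, had a shared region at its start that covered 715 bp in Ebf2-EGFP- and 568 bp in Ebf2-EGFP+ cells. In the Ebf2-EGFP+ only class the order began with Vcam1 (794 bp in 3 regions), Matk (664 bp in 3), Hspa1b (615 bp in 1), Shank3 and Lat. Vcam1 is a cell adhesion molecule, Matk a kinase of blood cells and brain, and Hspa1b an inducible heat shock protein. Hspa1b has a near-identical neighbour, so its reads are uncertain, and it also had 2 Ebf2-EGFP- regions over 1418 bp further into the gene. Vcam1 and Matk had no Ebf2-EGFP- region within 5 kb of their starts.

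Vcam1 held 9 regions of the Ebf2-EGFP+ list, the most of any 100-kb window outside those that were mainly repeats. The gene has 10 coding exons on the minus strand, between chr3:116110880 and chr3:116129367, and the 9 regions touched 9 of them. They covered 1800 of 2406 coding bases, 74.8%, and 2427 bp in all, of which none lay in an intron. In Ebf2-EGFP- cells 2 regions of 142 and 198 bp lay in 2 of these exons, inside Ebf2-EGFP+ regions, so 2 of the 9 counted as shared and 7 as Ebf2-EGFP+ only. One whole exon of the gene shows the fit of region and exon. It is printed on the minus strand, in the direction of transcription, with the 253 bases inside the Ebf2-EGFP+ region in capitals and the 6 and 17 exon bases outside it in lower case.
Vcam1, coding exon, chr3:116120798-116121073: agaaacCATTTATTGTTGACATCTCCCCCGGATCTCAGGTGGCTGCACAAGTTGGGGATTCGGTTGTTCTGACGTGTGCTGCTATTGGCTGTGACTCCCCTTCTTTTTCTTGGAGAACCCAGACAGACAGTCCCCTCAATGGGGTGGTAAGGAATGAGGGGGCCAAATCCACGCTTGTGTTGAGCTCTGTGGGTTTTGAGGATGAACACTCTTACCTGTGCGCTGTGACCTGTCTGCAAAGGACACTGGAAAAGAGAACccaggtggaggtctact

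Coverage of coding sequence was also counted across genes, without asking whether introns were spared. How often regions kept to coding exons as in Vcam1 was therefore not counted. Of 20458 genes with at least 400 coding bases, the Ebf2-EGFP+ list covered at least 50% of the coding sequence in 4, among them Vcam1 and Gm4559. The Ebf2-EGFP- list did so in 229, the E13.5 and E15.5 Ebf2-EGFP+ lists in 10 and 19, and the H3K27ac list of E11.5 Ebf2-EGFP+ cells in 276. At E15.5 Vcam1 again had 9 regions, over 63.6% of its coding bases, with 2 bp in introns, and at E13.5 none. The single H3K27ac library of E11.5 Ebf2-EGFP- cells had 2 regions in the gene, both touching coding exons. Vcam1 was looked at in this way after its values had been seen, and where the exon-bound signal came from was not tested.

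**Figure D4:**
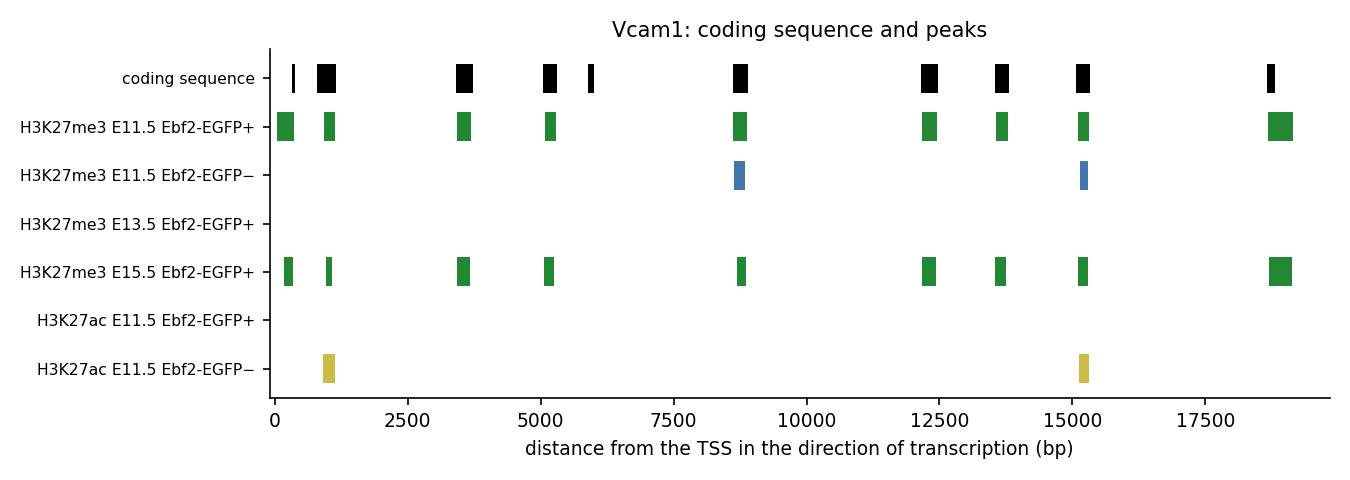
Coding exons (black) and listed regions of Vcam1, by distance from the TSS in the direction of transcription (bp), for H3K27me3 in E11.5 Ebf2-EGFP- cells (blue), H3K27me3 in Ebf2-EGFP+ cells of E11.5, E13.5 and E15.5 (green) and H3K27ac at E11.5 (yellow). The 9 Ebf2-EGFP+ regions of E11.5 sit on 9 of the 10 coding exons.

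Shared regions were those most often overlapped by H3K27ac of the neurons. An H3K27ac region of E11.5 Ebf2-EGFP+ cells overlapped 51.3% of shared regions in the Ebf2-EGFP+ list (48.4 to 54.3), 10057 of 47880 Ebf2-EGFP- only regions (20.6% to 21.4%) and 14.9% of Ebf2-EGFP+ only regions (14.0 to 15.9), against 0.667% of 200-bp windows of the genome. The lead of the shared class held away from promoters. Over 5 kb from every protein-coding TSS the shares were 48.0% of shared (44.7 to 51.4), 12.7% of Ebf2-EGFP- only and 12.9% of Ebf2-EGFP+ only regions, so that the unshared classes did not differ there beyond their intervals. Within 5 kb they were 62.5%, 42.8% and 27.5%. Counted over the 37055 H3K27ac regions, 27.7% overlapped the Ebf2-EGFP- H3K27me3 list and 3.62% the Ebf2-EGFP+ H3K27me3 list. The H3K27ac list comes from Ebf2-EGFP+ cells, so its overlap with the Ebf2-EGFP- H3K27me3 list joins marks of different sorted cells. Within Ebf2-EGFP+ cells the lists come from pools, so there too the marks may lie in different cells. The share of co-marked nucleosomes was not tested.

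The starts gave a similar picture. An H3K27ac region of E11.5 Ebf2-EGFP+ cells lay within 5 kb of 81.0% of the TSS marked by H3K27me3 in both populations (78.1 to 83.6), 71.7% of those marked in Ebf2-EGFP- cells alone (70.8 to 72.5), 50.9% of those marked in Ebf2-EGFP+ cells alone (45.5 to 56.4) and 28.5% of those marked in neither (27.7 to 29.4). Among the markers, 8 of 10 genes of each population had one, too few genes to be set apart from the 71.7% above. Ebf3 and Lhx5 had 4 each. H3K27ac of E11.5 Ebf2-EGFP- cells, from 1 library with 1386 regions, overlapped 1.46% of Ebf2-EGFP- only, 1.65% of shared and 0.170% of Ebf2-EGFP+ only regions, against 0.0238% of windows. Of those 1386 regions 50.4% overlapped the Ebf2-EGFP- H3K27me3 list and 1.95% the Ebf2-EGFP+ H3K27me3 list.

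Over all regions the later Ebf2-EGFP+ lists gave the same order of classes. At E13.5, with 102877 H3K27ac regions, the shares overlapped were 56.2% of shared, 37.3% of Ebf2-EGFP- only and 19.9% of Ebf2-EGFP+ only regions, against 1.70% of windows. At E15.5, with 25787, they were 22.8%, 18.3% and 4.68%, against 0.604%. Within 5 kb of a TSS shared regions did not lead at E15.5, with 48.7% of Ebf2-EGFP- only (47.8 to 49.5), 41.9% of shared (36.0 to 48.2, an overlapping interval) and 14.0% of Ebf2-EGFP+ only regions. H3K27me3 itself recurred seldom in the later neurons. The E13.5 H3K27me3 list, of 6721 regions, overlapped 8.16% of shared (6.68 to 9.93), 2.75% of Ebf2-EGFP- only (2.61 to 2.90) and 1.55% of Ebf2-EGFP+ only regions (1.25 to 1.92), against 0.0925% of windows. Of the 6721 regions 21.3% overlapped the Ebf2-EGFP- list of E11.5 and 2.53% the Ebf2-EGFP+ list, which lists differ 7.67-fold in size. The E15.5 H3K27me3 list, of 1429 regions, overlapped 1.19%, 0.411% and 0.208% of the classes in the same order. The classes differ in width, and a wider region meets another more easily.

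**Figure D5:**
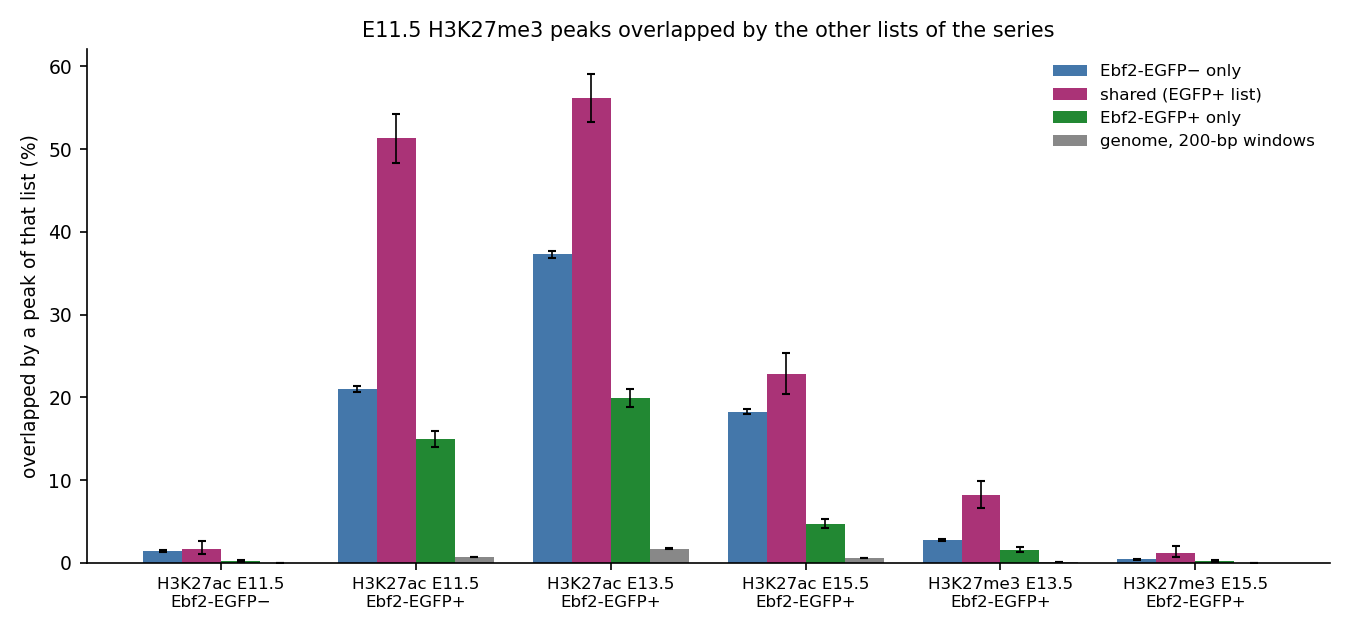
Share of each class of E11.5 H3K27me3 regions that was overlapped by at least 1 bp by a region of each other list of the series, in percent, with 95% Wilson intervals as bars that cover counting error only; grey bars give the share of 200-bp genome windows. Shared regions stand highest in all 6 groups of bars, at 51.3% for H3K27ac of E11.5 Ebf2-EGFP+ cells against 14.9% for Ebf2-EGFP+ only regions.

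Along the chromosomes the 2 lists followed each other, with the X chromosome apart. On the 19 autosomes the Ebf2-EGFP- list had from 12.7 regions per Mb on chromosome 3 to 29.0 on chromosome 11, and the Ebf2-EGFP+ list from 1.66 to 4.04 on the same chromosomes. The ratio of the lists lay between 6.89 and 8.74 on every autosome, and the shared part of the Ebf2-EGFP+ list between 12.1% and 21.6%. On the X chromosome there were 1252 Ebf2-EGFP- and 77 Ebf2-EGFP+ regions, 7.32 and 0.450 per Mb, a ratio of 16.3. Of the 77 regions 41 were shared, 53.2% (42.2 to 64.0), and 51 lay in DNA that was over 50% repeats. Without the windows of the genome most crowded with regions, described next, 58 remained, of which 26 were shared, 44.8% (32.7 to 57.5). The sexes of the pooled embryos are not in the labels.

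Some regions crowded into repeats. Of the 100-kb windows of the genome, 45 held at least 20 Ebf2-EGFP- regions each, against a median of 2 in occupied windows. Together they held 1287 Ebf2-EGFP- regions, 2.63% of the list, and 160 Ebf2-EGFP+ regions, 2.51%. The most crowded, chr6:114500001-114600000, held 110 and 16 regions, and chr8:123500001-123600000, which holds the 5S ribosomal RNA genes, 82 and 3. On chrX:170800001-170900000 lay 46 and 19. Without these 45 windows the shared part of the Ebf2-EGFP+ list was 15.8%. Over the whole lists, repeat-masked bases made up on average 24.0% of an Ebf2-EGFP- only region, 23.9% of a shared region in the Ebf2-EGFP+ list and 16.1% of an Ebf2-EGFP+ only region, against 36.4% of the genome.

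The widest regions were often in long exons or repeats. In the Ebf2-EGFP- only class the widest, 2255 bp, lay in coding sequence of Ahnak2, a large scaffold protein, at chr12:112775872-112778126. The next, 1930 bp on chromosome 10, was all repeat, and the one after, 1875 bp, lay in the lincRNA gene Gm26917. Among shared regions of the Ebf2-EGFP- list, exons of the mucin gene Muc19 and the epithelial plakin gene Eppk1 held regions of 2545 and 2473 bp. Wide shared regions of the Ebf2-EGFP+ list lay in Taok2, a kinase gene (739 bp), between genes on chromosome 11 (689 bp), in Muc19 (658 bp) and in Mid1 on the X chromosome (652 bp). The widest Ebf2-EGFP+ only region, 650 bp, lay in an intron of Fam129b, chr2:32918600-32919249.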

How the data were processed

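ChIP-seq libraries of H3K27me3 were made from sorted Ebf2-EGFP- and Ebf2-EGFP+ cells at E11.5, with 2 libraries in each group. According to the study's methods and the submitters' processing notes, the authors aligned reads to mm10 with Bowtie 1.1.2 and called peaks with MACS, and they deposited 1 peak list per group. Whether the 2 libraries were pooled or their lists merged is not given in the sources used here. All peaks carried a deposited score of 0, so only the position of each region was used, and its height, its p-value and the depth of its library are unknown. Starts were read as counted from 0 and are given counted from 1.

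Overlaps, features and distances were computed in Python 3.11.15 (numpy 2.4.6, pandas 2.3.3, scipy 1.17.1, matplotlib 3.10.9) against the 21938 protein-coding genes of GENCODE M21, 1 TSS per gene, and the GRCm38 sequence of RefSeq. A region was placed by its centre. Genome positions were set every 1 kb and 200-bp sequence windows every 10 kb. Overlap, distance and interval functions were tested on simulated data. The 1 mitochondrial region was left out.

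Of the 25 gene lists, 15 were lists of named symbols, of which 1 symbol was not found, and 10 were families taken by name. The members and lists were chosen with earlier results of these data known. Named genes were listed genes with a region within 5 kb, those in the Ebf2-EGFP+ list first and otherwise those with the most marked bases, and for each class the 10 protein-coding genes with the most marked bases, the 5 widest regions and the most crowded 100-kb windows. Printed sequences left out untranslated exon, chromosome 18 and regions over 50% repeats. Vcam1 coding exons were looked at after their values had been seen. Some genes that this rule names are not reported here. With 1 list per group no test between populations was made. Alternatives changed the overlap rule, the promoter window, the TSS definition, the width, the size of the Ebf2-EGFP- list and the chromosomes, and, chosen after seeing the data, left out crowded windows and repeats.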

Additional observations from a re-analysis of the deposited data

How the results depend on the processing

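Each group had 1 list, so no replicate could be left out and no paired analysis was possible because no list per library was used. Of 62 values under alternatives, 40 moved, mostly beyond their 95% intervals. The values at promoters kept the order Ebf2-EGFP- only above shared above Ebf2-EGFP+ only under each alternative given here, though few shared regions were behind the setting on width. The shared part of the Ebf2-EGFP+ list was 7.36% with a reciprocal overlap of 50%, 28.1% with regions within 1 kb counted as shared, 5.10% against the widest regions of the Ebf2-EGFP- list and 2.22% against an evenly thinned Ebf2-EGFP- list, both cut to the size of the Ebf2-EGFP+ list. The shared part of the Ebf2-EGFP- list was 0.960%, 4.42% and 4.87% under the first 3 of these, 2.42% with regions within 1 kb merged and 0.461% with regions of at least 300 bp in both lists. The promoter share of the Ebf2-EGFP- only, shared and Ebf2-EGFP+ only classes was 27.5%, 22.7% and 14.1% within 5 kb, 21.9%, 17.0% and 7.80% with every protein-coding transcript start, and 31.2%, 17.9% and 8.51% for regions of at least 300 bp. That 17.9% was 7 of 39 regions and the 8.51% was 16 of 188, too few to place the shared class firmly. With a reciprocal overlap of 50% it was 5.71% for Ebf2-EGFP+ only regions. Median distances were 14.5, 14.9 and 19.03 kb with every transcript start. The share of TSS marked was 36.2% and 1.89% with a 1-kb window, and 49.0% and 5.30% with every transcript start, for the Ebf2-EGFP- and Ebf2-EGFP+ lists. For the Ebf2-EGFP- list it was 13.4% with its widest regions, 9.53% thinned and 49.9% on the autosomes. With a 1-kb window 14 of 25 gene lists lay above the Ebf2-EGFP+ background, against 8. The causes of these shifts beyond the settings themselves were not tested.

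The alternatives on crowded windows and repeats were chosen after seeing the data. Without crowded windows the shared parts were 15.8% and 2.05% of the Ebf2-EGFP+ and Ebf2-EGFP- lists, and 47.4% of TSS were marked in the Ebf2-EGFP- list. Without regions over 50% repeats 15.4% of the Ebf2-EGFP+ list was shared, promoters held 21.8% of Ebf2-EGFP- only and 15.8% of shared regions, the median distances of the 3 classes were 14.0, 15.04 and 24.4 kb, and 47.2% of TSS were marked in the Ebf2-EGFP- list.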

Other observations

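Gene groups outside the fixed lists gave few further values. In the Ebf2-EGFP- list 19 of the 25 lists lay above the share over all TSS, and in the Ebf2-EGFP+ list 8 did. Starts of small nuclear and nucleolar RNA genes over 5 kb from every protein-coding TSS were marked in 15.9% of 2527 cases in Ebf2-EGFP- cells (14.6 to 17.4) and in 2.97% in Ebf2-EGFP+ cells (2.37 to 3.70). The CA repeat CACACACA lay in the central 200 bp of 5.59% of shared regions in the Ebf2-EGFP+ list, 3.13% of Ebf2-EGFP- only and 3.95% of Ebf2-EGFP+ only regions, against 6.04% of genome windows. The ETS word CCGGAAG was found in 2.84%, 4.94% and 1.81%, against 0.564%. On the Y chromosome the lists held 126 and 8 regions.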
